A study of Homo sapiens with 4 samples.

Results

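Kinesins are the motor proteins that use ATP to move along microtubules or to take them apart, and their genes were read here in slow-cycling and unselected cells of MDA-MB-231, a long-established line of human breast cancer of the triple-negative kind. Members were all protein-coding genes of the deposited count table whose symbol starts with KIF or KIFC followed by a digit, 43 of 58735 genes. By their known roles, 14 work on the spindle or in cytokinesis, 17 carry cargo in interphase cells, 6 serve cilia, centrioles or signalling at the cilium, 4 have other or less settled roles, and KIF2A serves both the spindle and interphase cells. The remaining gene, KIF1BP, is no motor: it encodes a protein that binds kinesins and takes its symbol from that. A mean of at least 1 CPM (counts scaled to a fixed library total) over the 4 libraries was reached by 35 members, among them 12 of the spindle and cytokinesis list and 15 of the transport list.

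All cells, Bulk included, were transduced with TetOn-H2BeGFP, a doxycycline-inducible histone H2B fused to eGFP. Doxycycline at 5 μg/ml was given for 3 days, Claret and Violet dyes were added, and the labels were left to dilute over a chase of 12 days. Cells in the top 1% for Claret, for eGFP or for Violet gave the 3 slow-cycling populations, while Bulk cells passed the sorter without any gate on fluorescence. Each of the 4 populations gave 1 library, so no difference given here has a replicate check, and the intervals in the text are 95% exact intervals of the ratio of reads, which cover counting error only. The title and the treatment field of each sample disagree on the sort: the field gives Claret for the library titled Bulk, eGFP for the one titled Claret, Violet for eGFP and un-gated cells for Violet. Libraries are called here by their titles, which match the column names of the deposited tables.

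Library totals ran from 15508179 to 16976909 reads, with a mitochondrial part of 4.18% in Bulk and 5.06% to 5.48% in the others. The 6 markers of the line (VIM, CD44, CAV1, EGFR, KRT18 and AXL) were at 33.0 FPKM or more (fragments scaled to gene length and to a total per library set by the authors) in every library. ESR1, PGR, CDH1 and EPCAM, which the line lacks or expresses weakly, summed to at most 1.55 FPKM, and PGR had 0 reads in all 4. Of 5 immune markers none had more than 4 reads in a library. The 6 fibroblast and endothelial markers summed to 4.19 FPKM in Bulk and 6.48 to 6.69 FPKM in the slow-cycling libraries, and the part of this in the kinesin values was not tested. Proliferation markers were lower in the slow-cycling libraries: MKI67 had log2 ratios to Bulk of -2.87, -3.31 and -2.89 in Claret, eGFP and Violet, and TOP2A had -2.17, -2.53 and -2.09.

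In a dividing cell, kinesins push the spindle poles apart, slide and shorten spindle microtubules, move chromosomes and build the central spindle from which cytokinesis proceeds. Most of these genes are transcribed mainly in G2 and mitosis, and in resting cells they are held down by complexes that bind their promoters. Motors of interphase transport carry vesicles, mitochondria, lysosomes and RNA towards microtubule plus ends (a few KIFC motors walk the other way), and they are needed whether or not a cell divides.

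The motors of the spindle and of cytokinesis were lower in every slow-cycling library than in Bulk, and the transport motors lay on both sides of Bulk. In bulk RNA, fewer cells of a type (such as cells in mitosis) and less RNA per cell cannot be told apart. All 12 spindle and cytokinesis genes above the filter had a log2 ratio of -1 or lower in Claret, in eGFP and in Violet, against 6.72%, 7.64% and 6.92% of the 14585 genes kept. With groups taken from the treatment field in place of the titles, 0 of the 12 were that low in any library. Of the 15 transport genes above the filter, 0 were that low in any library. For the spindle and cytokinesis genes the median log2 ratios were -2.08 (Claret), -2.37 (eGFP) and -2.07 (Violet), where the median over all genes kept was -0.0084, -0.012 and 0.0062. The transport genes had medians of -0.16, 0.38 and 0.28, with members spread to both sides of 0. These medians moved with the genes admitted: with a filter at 10 CPM, which left 13 genes, they were -0.21, -0.25 and -0.20, and with stricter role lists of 10 genes -0.21, 0.063 and 0.039. With KIF2A in neither list, the ranges of the spindle and transport lists did not overlap in any library. The spindle gene that differed least from Bulk, KIF18A, was at -1.43, -1.52 and -1.24. The transport gene furthest below Bulk, KIF1C, was at -0.94, -0.90 and -0.91. The intervals of this pair did not overlap in any library either, the closest being -1.45 to -1.05 for KIF18A and -0.99 to -0.84 for KIF1C in Violet. The stricter role lists place KIF2A with the spindle genes. KIF2A was at -0.50, -0.56 and -0.47, above KIF1C, so with those lists the ranges overlapped in each library. Since a member lower than the filter cannot enter these counts, they describe the genes that were read, and the reads of the others are given further on.

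**Figure D1:**
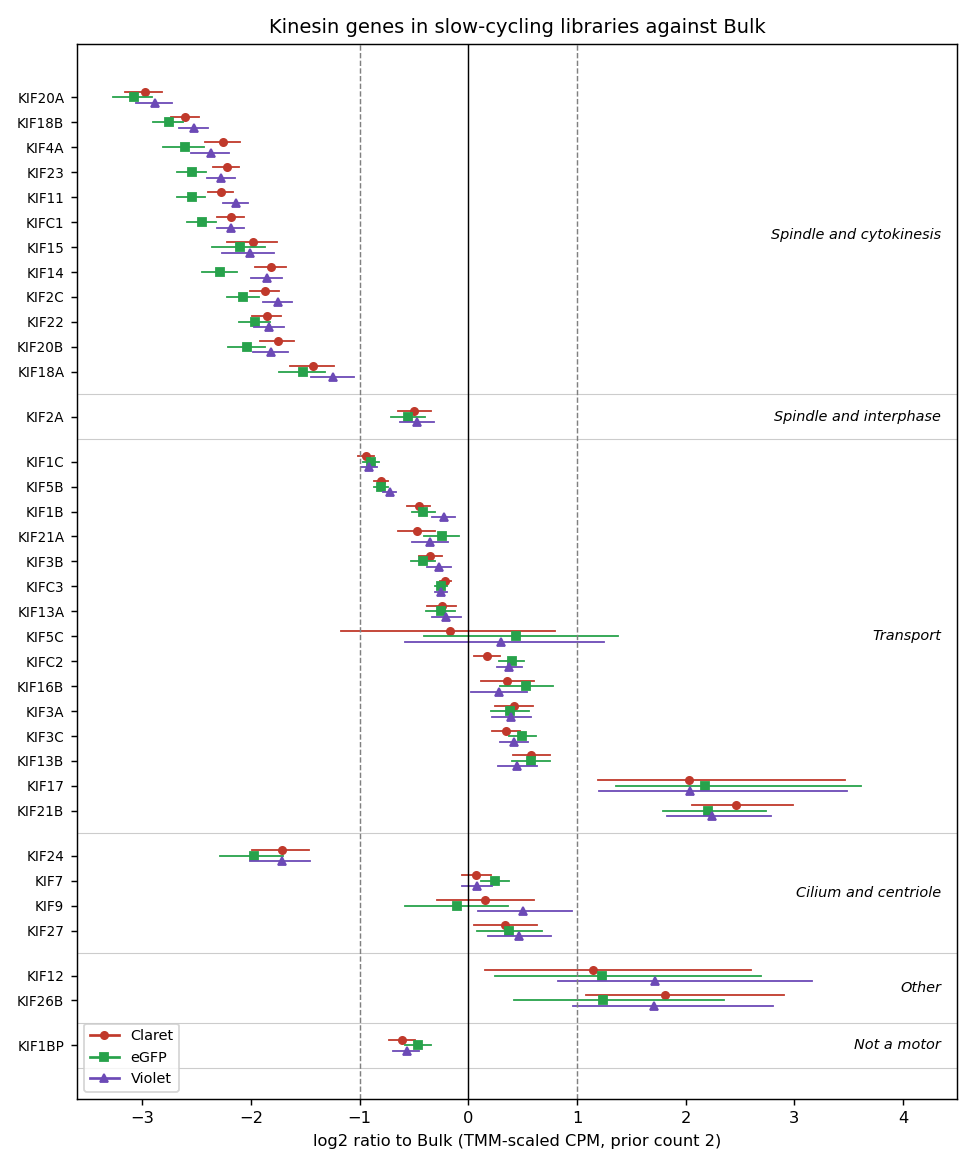
Log2 ratios to Bulk (x axis; TMM-scaled CPM with a prior count of 2) of the 35 members above the filter, by role (y axis); symbols are libraries, bars 95% exact intervals of the read ratio, and dashed lines mark log2 ratios of -1 and 1. All 12 spindle and cytokinesis genes and KIF24 lie left of -1 in the 3 libraries, and the 15 transport genes lie right of it.

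Promoter sequence is shown for 8 members because the spindle and cytokinesis genes were lower together. CHR elements are hexamers near the starts of late cell-cycle genes, bound by complexes that hold these genes down in resting cells, and the CCAAT box is bound by NF-Y, an activator often found beside them. The letters searched on both strands were TTTGAA or TTTAAA for the CHR hexamer and CCAAT for the NF-Y box; none of these contains another, and TTTAAA reads the same on both strands. Each line gives 150 bases directly upstream of the RefSeq start (build GRCh38.p14), on the strand of the gene, with both kinds of match in capitals.
KIF20A, chr5:138178962-138179111, plus strand: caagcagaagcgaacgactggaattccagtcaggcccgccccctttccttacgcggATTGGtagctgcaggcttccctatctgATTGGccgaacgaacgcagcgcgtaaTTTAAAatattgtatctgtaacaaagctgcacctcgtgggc
KIF11, chr10:92592980-92593129, plus strand: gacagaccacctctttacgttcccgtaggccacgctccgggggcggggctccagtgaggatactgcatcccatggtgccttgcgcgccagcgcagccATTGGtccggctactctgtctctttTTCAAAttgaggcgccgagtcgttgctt
KIF4A, chrX:70289954-70290103, plus strand: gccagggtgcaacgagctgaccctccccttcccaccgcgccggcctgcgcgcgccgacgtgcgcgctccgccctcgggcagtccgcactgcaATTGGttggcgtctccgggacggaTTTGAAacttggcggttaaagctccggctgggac
KIF18A, chr11:28108157-28108306, minus strand: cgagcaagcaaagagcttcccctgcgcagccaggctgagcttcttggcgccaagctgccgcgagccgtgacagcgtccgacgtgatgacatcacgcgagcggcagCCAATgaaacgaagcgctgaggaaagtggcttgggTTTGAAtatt
KIF15, chr3:44761644-44761793, plus strand: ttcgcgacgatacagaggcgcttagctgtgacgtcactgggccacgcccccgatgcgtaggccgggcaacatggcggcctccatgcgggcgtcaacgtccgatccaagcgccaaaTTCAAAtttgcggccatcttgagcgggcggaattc
KIF24, chr9:34329269-34329418, minus strand: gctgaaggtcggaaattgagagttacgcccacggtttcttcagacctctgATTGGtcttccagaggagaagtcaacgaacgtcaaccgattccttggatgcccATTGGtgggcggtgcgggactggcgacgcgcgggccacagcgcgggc
KIF5B, chr10:32056426-32056575, minus strand: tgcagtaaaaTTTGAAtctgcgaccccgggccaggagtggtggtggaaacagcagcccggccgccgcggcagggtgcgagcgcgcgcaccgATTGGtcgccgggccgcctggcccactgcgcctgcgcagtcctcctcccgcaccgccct
KIF3C, chr2:25982498-25982647, minus strand: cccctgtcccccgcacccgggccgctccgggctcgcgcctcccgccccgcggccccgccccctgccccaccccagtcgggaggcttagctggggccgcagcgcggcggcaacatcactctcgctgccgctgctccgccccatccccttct
The spindle genes KIF20A, KIF11, KIF4A and KIF18A each hold a box followed by a hexamer close to the start. KIF15 holds the hexamer without the box, and directly before the hexamer is the only E2F octamer (TTTGGCGC or TTTCGCGC, searched on both strands; 2.47% of protein-coding genes kept) found in the spindle windows. Those octamers begin with the letters TTT, as the hexamers do. The printed stretch of KIF24 holds 2 boxes and no hexamer, the stretch of the transport gene KIF5B holds both kinds of match far apart, and that of KIF3C holds neither. Of these 8 genes, the RefSeq start lies upstream of the gene as deposited for KIF24, by 17897 bases, and for KIF11, by 156 bases. For the others it lies inside the deposited gene. Counted the same way, it is at -393 for KIF20A, -252 for KIF3C, -152 for KIF18A, -77 for KIF15, -14 for KIF4A and -6 for KIF5B. The stretches printed for KIF20A, KIF3C and KIF18A thus lie wholly within the deposited gene.

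RefSeq windows of 300 bases, 250 before to 50 after the start, were found for 35 of the 43 members. The CHR hexamer letters were in the windows of 12 of 14 spindle and cytokinesis genes and of 2 of 12 transport genes, against 21.1% of the 9939 protein-coding genes kept that have a window and 27.9% of all 27305 genes with one. NF-Y box letters were in 11 of 14 spindle windows, 4 of 12 transport windows and 43.2% of those protein-coding genes. Both together were in 10 of 14 and in 1 of 12, against 8.85%. These member counts include KIF2B, KIF4B and KIF1A, which are under the filter, while the shares of protein-coding genes kept leave such genes out. KIF4B held both kinds of match. The 2 spindle genes without the hexamer were KIF22, which had 1 box, and KIF2B, which had neither and no reads. KIF2C had a hexamer at its start and no box. In KIF14, KIF18B, KIF20B, KIF4B and KIFC1 a hexamer lay in the first 50 bases after the start. No window was found for KIF5A, KIF13B, KIF19, KIF21B, KIF26B, KIF27, KIFC2 and KIFC3. A match is only a run of letters, and whether any factor was bound there was not measured. Any part of these letters in the lower values of the spindle genes was not tested.

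**Figure D2:**
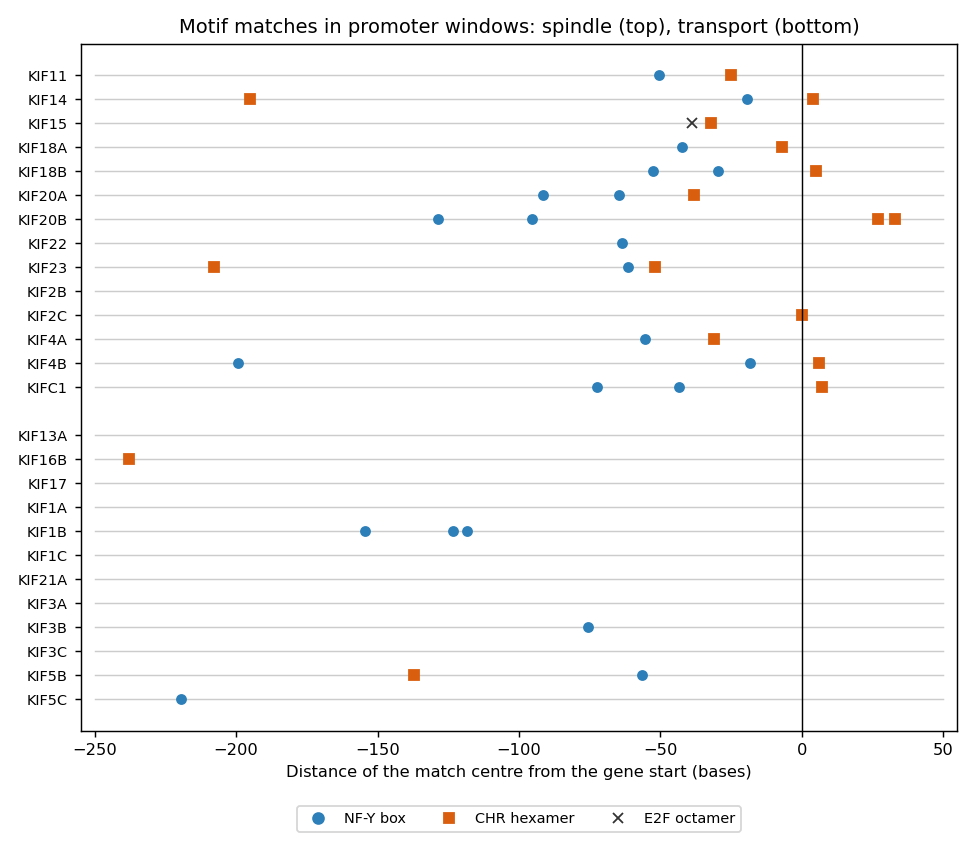
Matches of the 3 letter sets in the promoter windows of 14 spindle and cytokinesis genes (top) and 12 transport genes (bottom), plotted by the distance in bases of the match centre from the RefSeq start (x axis; windows of the same gene are overlaid). Hexamers lie within 60 bases of the start in 12 of the 14 spindle genes and in 0 of the 12 transport genes. The share of all genes with a hexamer that near was not computed, so this count has no background beside it. Anywhere in the window, 12 of the 14 spindle genes, 2 of the 12 transport genes and 21.1% of protein-coding genes kept had one. Members under the filter are included in the counts of spindle and transport genes.

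Among motors that build and hold the bipolar spindle, KIF11 (ENSG00000138160, chromosome 10, 92593286 to 92655395), the kinesin-5 that pushes the poles apart, had a Bulk count of 3262 reads and Claret, eGFP and Violet counts of 725, 562 and 739 (the order kept from here on). Log2 ratios were -2.27 (-2.40 to -2.16), -2.55 (-2.68 to -2.42) and -2.14 (-2.26 to -2.03). KIF15 (ENSG00000163808, chromosome 3, 44761717 to 44873376), a kinesin-12 that can keep poles apart when KIF11 fails, had 736 reads in Bulk and 200, 172 and 181. KIF15 was thus lower along with KIF11, at -1.98, -2.10 and -2.01. KIFC1 (ENSG00000237649, chromosome 6, 33391536 to 33409924), the minus-end motor that bundles microtubules at the poles and clusters extra centrosomes, had 2904 reads in Bulk and 687, 535 and 636. With -2.18, -2.45 and -2.19 it lay close to KIF11.

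The motors that shorten or cap microtubule ends differed among themselves. KIF18B (ENSG00000186185, chromosome 17, 44924709 to 44947711), a kinesin-8 acting on astral microtubules, had 3210 reads in Bulk and 568, 478 and 556, with ratios on the log2 scale of -2.60 (-2.74 to -2.48), -2.76 (-2.90 to -2.62) and -2.52 (-2.66 to -2.40). KIF18A (ENSG00000121621, chromosome 11, 28020620 to 28108308), the kinesin-8 that dampens chromosome movements at the metaphase plate, had 703 reads in Bulk and 280, 246 and 296. Its log2 ratio of -1.24 in Violet (-1.45 to -1.05) was the smallest in size of the 12, and its interval there did not overlap that of KIF18B. KIF2C (ENSG00000142945, chromosome 1, 44739818 to 44767767), the centromeric microtubule depolymerase also called MCAK, had 2004 reads in Bulk and 588, 480 and 593, at -1.87, -2.07 and -1.75.

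Of the chromosome-bound motors, KIF4A was further below Bulk than KIF22 in each library. KIF4A (ENSG00000090889, chromosome X, 70290090 to 70420832), a chromokinesin that also sets the length of the central spindle, had 1674 reads in Bulk and 377, 275 and 323, at -2.25, -2.61 and -2.37. Of its 31-mers, 26.6% also occur in KIF4B, so its count is uncertain, although KIF4B itself had 1 to 3 reads in each library. KIF22 (ENSG00000079616, chromosome 16, 29790719 to 29805385), the kinesin that pushes chromosome arms towards the plate, had 1983 reads in Bulk and 591, 512 and 555, at -1.85, -1.96 and -1.83.

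Cytokinesis motors held the lowest value of the family. KIF20A (ENSG00000112984, chromosome 5, 138178719 to 138187715), the kinesin-6 that brings Aurora B to the central spindle, had 2418 reads in Bulk and 329, 287 and 326. It was 7.88-fold, 8.45-fold and 7.37-fold lower, log2 ratios of -2.98 (-3.16 to -2.82), -3.08 (-3.27 to -2.91) and -2.88 (-3.06 to -2.72), and in no library did this interval reach that of another spindle gene, KIF18B being the nearest. KIF23 (ENSG00000137807, chromosome 15, 69414246 to 69448427), the kinesin-6 of the centralspindlin complex, had 3069 reads in Bulk and 707, 530 and 634, at -2.22, -2.54 and -2.27. The third kinesin-6, KIF20B (ENSG00000138182, chromosome 10, 89701610 to 89774939), which acts late in abscission, had 1460 reads and 465, 358 and 414, at -1.75, -2.03 and -1.81. KIF14 (ENSG00000118193, chromosome 1, 200551497 to 200620734), a kinesin-3 that works with citron kinase at the midbody, had 1833 reads in Bulk and 560, 378 and 506, at -1.81, -2.28 and -1.85. The 3 kinesin-6 genes therefore spanned more than 1 log2 unit, with KIF20A furthest from Bulk and KIF20B nearest in each library.

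KIF2A, the kinesin-13 that shortens microtubules both at spindle poles and in interphase cells, had 824 reads in Bulk and 629, 565 and 594, log2 ratios of -0.50, -0.56 and -0.47. It lay outside the range of the 12 spindle genes in each library and inside that of the transport genes. KIF2A shares 428 exonic bases with IPO11 on the same strand, which had 575 reads in Bulk and 382, 406 and 335. The part of IPO11 in the KIF2A count was not tested.

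The transport motors split into members below and above Bulk. In all 3 slow-cycling libraries the interval lay below 0 for 7 of the 15 genes and above 0 for another 7, where 30.5% and 27.7% of all genes kept did so. KIF5C was on neither side, with 20 reads in Bulk and 19, 28 and 25. The 4 transport genes with the highest mean FPKM over the 4 libraries were KIF5B (41.9), KIFC3 (34.7), KIF1C (21.1) and KIFC2 (18.5). KIF5B, KIFC3 and KIF1C lay below Bulk, and KIFC2 above it, at log2 ratios of 0.17, 0.40 and 0.38. KIF5B (ENSG00000170759, chromosome 10, 32009010 to 32056431), the heavy chain of conventional kinesin that carries vesicles and mitochondria, had 61.7 FPKM in Bulk and 34.9, 34.7 and 36.1. Its log2 ratios were -0.80 (-0.87 to -0.74), -0.80 (-0.87 to -0.74) and -0.72 (-0.79 to -0.66). KIF1C (ENSG00000129250, chromosome 17, 4997948 to 5028401), a kinesin-3 of vesicle and RNA transport, had 33.1 FPKM in Bulk and at most 17.4 in the others, and its log2 ratios were -0.94 (-1.01 to -0.87), -0.90 (-0.97 to -0.83) and -0.91 (-0.99 to -0.84), just short of -1. KIFC3 (ENSG00000140859, chromosome 16, 57758217 to 57863053), a minus-end motor linked to cell junctions and the Golgi, was the steadiest of the 3 at 39.8 FPKM in Bulk and 33.9, 32.8 and 32.3. Its log2 ratios were -0.21, -0.25 and -0.25. With a correction for GC content they were -0.41, -0.47 and -0.43, and those of KIF5B were -0.71, -0.67 and -0.65, outside the intervals of the uncorrected ratios. KIF5B, KIFC3 and KIF1C together held 67.0% of the transport FPKM in Bulk and 54.3% to 56.0% in the slow-cycling libraries.

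Smaller differences below Bulk were read for KIF3B, for KIF1B, a carrier of mitochondria and vesicles, for KIF13A, which moves recycling endosomes, and for KIF21A, a kinesin-4 that slows microtubule growth at the cell cortex. Their log2 ratios lay between -0.47 and -0.20. In heterotrimeric kinesin-2, KIF3A pairs with either KIF3B or KIF3C. KIF3B lay below Bulk, and KIF3A and KIF3C above it. KIF3B had 1548 reads in Bulk and 1309, 1170 and 1283, KIF3A 469 and 677, 617 and 617, and KIF3C 857 and 1174, 1222 and 1145. The log2 ratios of KIF3B were -0.35, -0.42 and -0.27, those of KIF3A 0.42, 0.38 and 0.40, and those of KIF3C 0.35, 0.50 and 0.42. Per length, KIF3B (16.3 FPKM in Bulk, 12.0 to 13.1 in the others) stood above KIF3A (4.40, and 5.60 to 5.81) in each library. It also stood above KIF3C (8.61, and 10.8 to 11.9) in Bulk, Claret and Violet, by less in Claret and Violet than in Bulk. In eGFP KIF3B and KIF3C were level, at 12.0 and 11.9 FPKM. KIF13B, KIF16B (a carrier of early endosomes) and KIFC2 were also above Bulk, by 0.17 to 0.58, and with a correction for GC content KIFC2 in Claret changed sign, to -0.028.

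KIF21B and KIF17 were the 2 transport genes with a log2 ratio of 1 or higher, in all 3 libraries, where 8.67% of all genes kept were that high. By library the background was 11.3% (Claret), 12% (eGFP) and 11.7% (Violet), so a count of 2 in 15 is near it. KIF21B (ENSG00000116852, chromosome 1, 200969390 to 201023700), a kinesin-4 of neurons and lymphocytes that slows microtubule growth, had 46 reads in Bulk and 282, 221 and 225. Its log2 ratios were 2.46 (2.05 to 2.99), 2.20 (1.79 to 2.74) and 2.24 (1.83 to 2.78), but per length it stayed low, at 0.24 FPKM in Bulk and 1.14 to 1.37 FPKM in the others. KIF17 (ENSG00000117245, chromosome 1, 20664014 to 20718017), a kinesin-2 of dendrites and cilia, had 9 reads in Bulk and 46, 48 and 43, at 2.03, 2.18 and 2.04. Bulk was under 1 CPM for KIF17, which reached the filter only through the slow-cycling libraries, as did KIF12 and KIF26B of the members with other roles. KIF12 had 9 reads in Bulk and 24, 24 and 34, and KIF26B 14 and 58, 36 and 50. Their log2 ratios ran from 1.14 to 1.81. As differences of log2(FPKM + 1), a scale that shrinks the changes of weak genes, KIF21B, KIF17, KIF12 and KIF26B were all under 1 in the 3 libraries.

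**Figure D3:**
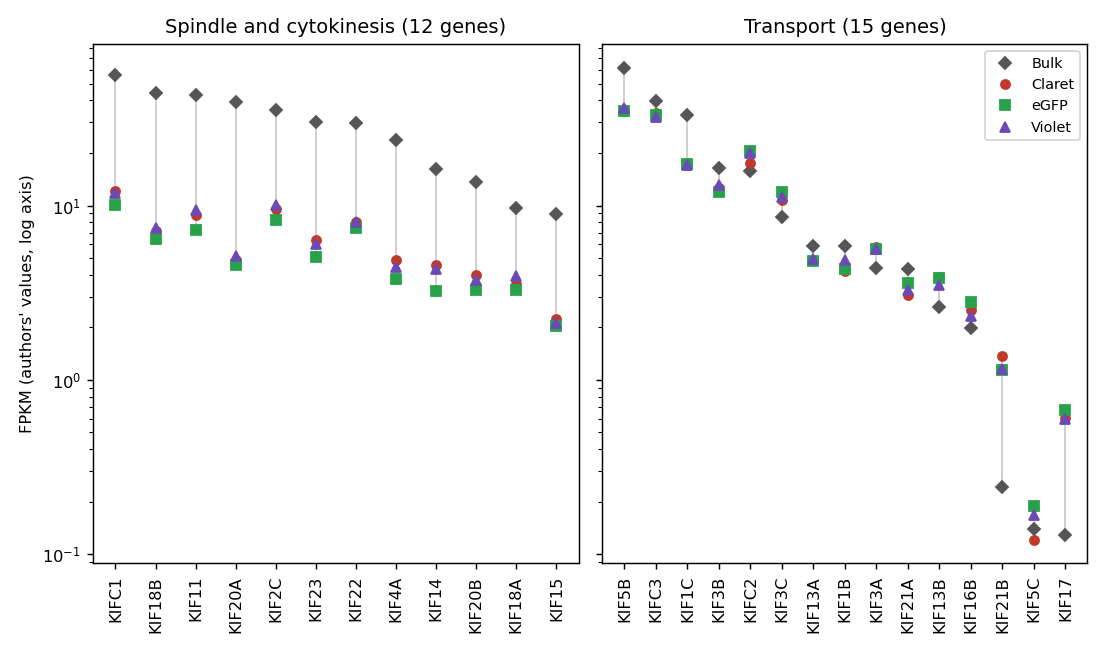
FPKM of the authors (y axis, log scale) for the 12 spindle and cytokinesis genes and the 15 transport genes above the filter, ordered by their level in Bulk (x axis), 1 point per library. Bulk lies above the other libraries for all 12 spindle genes, while the transport genes, from KIF5B at 61.7 FPKM in Bulk down to KIF17 at 0.13 FPKM, have Bulk on either side.

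Per length, the spindle and cytokinesis genes made up most of the motor RNA in Bulk and the smaller part in each slow-cycling library. Summed over the 14 spindle genes the level was 350.1 FPKM in Bulk and 76.1, 64.6 and 76.7 in the others, so that the slow-cycling libraries held 18.4% to 21.9% of the Bulk level. Summed over the 17 transport genes it was 200.9 FPKM in Bulk and 153.3, 156.5 and 155.99 in the others, 76.3% to 77.9% of Bulk. The spindle share of these sums was 63.5% for Bulk, then 33.2%, 29.2% and 33.0%. As a share of reads it was 51.3% (95% exact Clopper-Pearson interval 50.8% to 51.7%) for Bulk, then 23.2% (22.7% to 23.7%), 20.1% (19.6% to 20.6%) and 23.1% (22.6% to 23.6%). The order of levels changed with it: in Bulk KIFC1 (55.9 FPKM), KIF18B (44.4) and KIF11 (43.2) stood next to KIF5B (61.7), above KIFC3 (39.8), and in the slow-cycling libraries none of the spindle genes exceeded 12.1 FPKM, under KIF5B, KIFC3, KIF1C and KIFC2 in each.

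**Figure D4:**
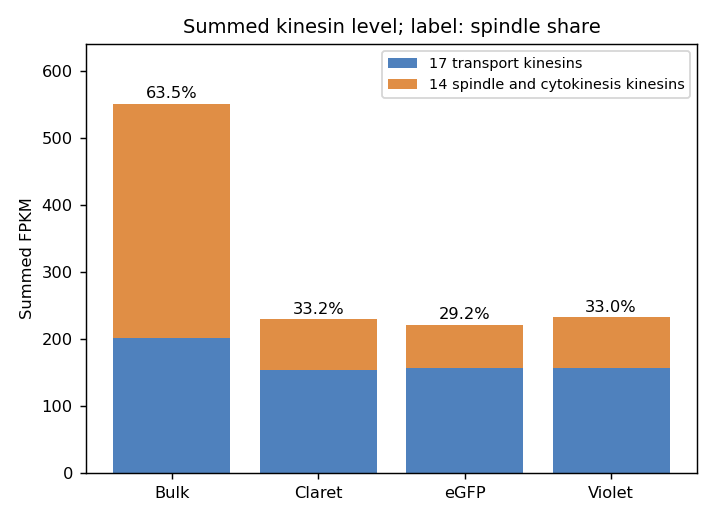
Summed FPKM (y axis) of the 17 transport and the 14 spindle and cytokinesis kinesins in each library (x axis); the label above a bar is the spindle share. The spindle part is 350.1 FPKM in Bulk and 64.6 to 76.7 FPKM in the slow-cycling libraries, and the transport part 200.9 and 153.3 to 156.5 FPKM.

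Sequence families that hold motors of several roles were compared member by member. In kinesin-13, KIF2C was at -2.07 to -1.75, KIF2A at -0.56 to -0.47, and KIF24, which serves centrioles, at -1.97 to -1.71. In kinesin-3, KIF14 was at -2.28 to -1.81, while its 5 transport relatives (KIF1B, KIF1C, KIF13A, KIF13B and KIF16B) ran from -0.94 to 0.58. The kinesin-4 gene KIF4A was at -2.61 to -2.25, while KIF21A and KIF21B ran from -0.47 to 2.46. KIF7 and KIF27, the kinesin-4 genes that serve cilia, ran from 0.07 to 0.46. In kinesin-14, KIFC1 was at -2.45 to -2.18, while KIFC2 and KIFC3 ran from -0.25 to 0.40. These are descriptions of 4 families, each with 1 spindle gene above the filter.

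Of the members that serve cilia and centrioles, KIF24 (ENSG00000186638, chromosome 9, 34252381 to 34311371) stood apart from the rest. This kinesin-13 sits at the mother centriole, where it restrains cilium growth, and had 484 reads in Bulk and 158, 123 and 146. Its log2 ratios of -1.71 (-1.99 to -1.46), -1.97 (-2.29 to -1.70) and -1.71 (-2.005 to -1.46) lay within the range of the spindle genes. KIF7, which acts in Hedgehog signalling at the cilium tip, had 862 reads in Bulk and 977, 1031 and 911, at 0.07, 0.25 and 0.08. It shares 589 exonic bases with TICRR on the opposite strand, which had 1373 reads in Bulk and 428, 374 and 351 and whose part in the KIF7 count was not tested. Under the GC correction KIF7 was at -0.13 in Claret and -0.10 in Violet. KIF27 was at 0.34, 0.38 and 0.46, but 42.4% of its 31-mers occur in other genes, so its count is uncertain. KIF9 had 79 reads in Bulk and 95, 74 and 113, and its interval included 0 in Claret and eGFP. Its exons share 870 bases with those of the antisense gene KIF9-AS1. KIF1BP, the kinesin-binding protein, had 1402 reads in Bulk and 989, 1028 and 944, at -0.61, -0.46 and -0.57.

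The 8 members under the filter had few or no reads. KIF2B, KIF5A and KIF19 stood at 0 reads in each library, a count that allows at most 3 reads, or 0.177 to 0.191 CPM by library. KIF1A had 0 reads in Bulk and 0, 2 and 4, KIF26A 0 and 0, 0 and 1, KIF25 1 and 2, 1 and 4, and KIF6 4 and 5, 3 and 4. KIF4B had 3 reads in Bulk and 1, 1 and 2. KIF5A is a neuronal heavy chain of conventional kinesin and KIF1A the neuronal carrier of synaptic vesicle precursors. For these 8 genes no difference between libraries was detectable at this depth.

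The slow-cycling libraries were also compared with each other. All 12 spindle and cytokinesis genes above the filter were lowest in eGFP of the 3 libraries, where 33.1% of all genes kept were, and 4 of the 15 transport genes were. The median log2 ratio of Claret to eGFP was 0.23, with intervals above 0 for 7 of the 12 genes (12.7% of all genes kept). For eGFP to Violet the median was -0.25, with intervals below 0 for 9 of the 12 (14% of all genes kept). Between Claret and Violet the median was -0.0080, with 6 genes on each side of 0 and 0 intervals that excluded 0, where 13.7% of all genes kept had an interval below 0 and 14.3% one above it. The widest of these differences was that of KIF14, with counts of 560, 378 and 506 reads: its log2 ratio was 0.47 (0.28 to 0.66) for Claret to eGFP and -0.43 (-0.63 to -0.24) for eGFP to Violet. KIF11 was at 0.27 (0.11 to 0.43) and -0.41 (-0.57 to -0.25). Intervals of KIF20A, KIF22 and KIF15 included 0 in both comparisons, so that for them a difference was not detectable at this depth. No spindle or transport gene above the filter reached a log2 ratio of 1 in size between slow-cycling libraries, where 1.15% of all genes kept did between Claret and eGFP, 1.06% between Claret and Violet and 1.29% between eGFP and Violet. These comparisons share libraries and are not independent.

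**Figure D5:**
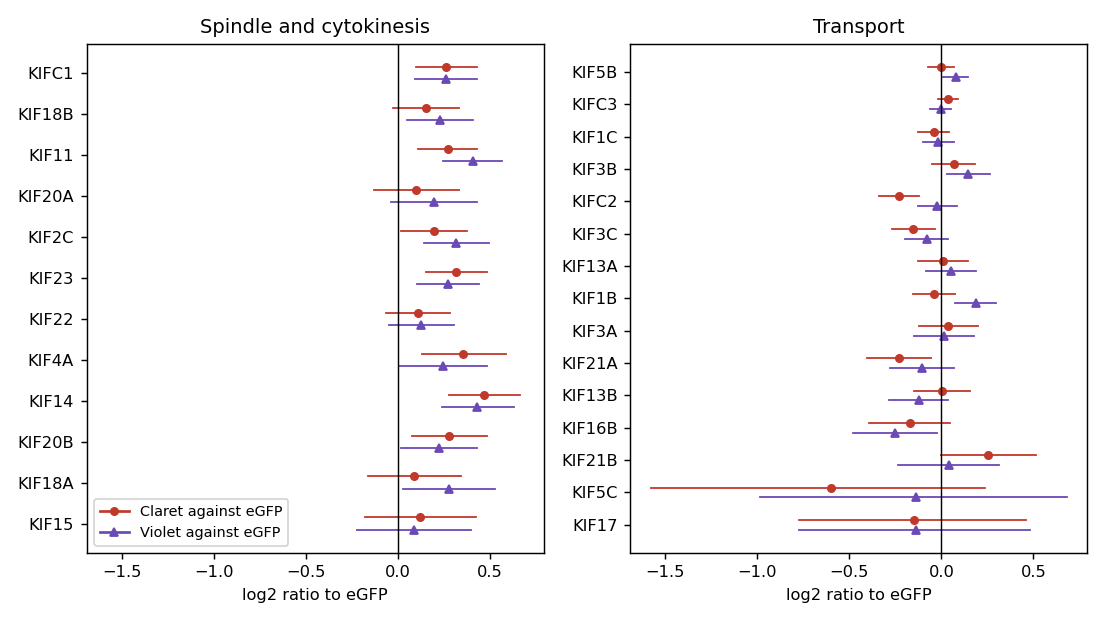
Log2 ratios of Claret and of Violet to eGFP (x axis) for the 12 spindle and cytokinesis genes (left) and the 15 transport genes (right), with bars for 95% exact intervals of the read ratio. All 12 spindle genes lie right of 0 in both comparisons, by 0.09 to 0.47, and the transport genes lie on either side.

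Proteins that work with the motors were read as 2 lists. Of 20 genes that work with the spindle and cytokinesis motors, 18 had a log2 ratio of -1 or lower in all 3 libraries, where 4.93% of all genes kept did. The list medians were -2.26, -2.47 and -2.18 in Claret, eGFP and Violet. The 4 with the lowest mean log2 ratio over the 3 libraries were BIRC5, AURKB, PLK1 and DLGAP5. BIRC5, the survivin subunit of the chromosomal passenger complex, had 2841 reads in Bulk and 478, 272 and 410 (log2 ratios of -2.67, -3.39 and -2.79). AURKB, the kinase of that complex which KIF20A carries to the central spindle, had 1826 reads and 370, 224 and 295 (-2.40, -3.03 and -2.62). PLK1, a mitotic kinase that docks on KIF20A, had 2456 and 437, 325 and 441 (-2.59, -2.92 and -2.47). DLGAP5, which stabilises kinetochore fibres, had 3455 and 687, 459 and 570 (-2.43, -2.92 and -2.59). The 2 that were not past -1, named after their values were seen, were CKAP5 (-0.83, -0.87 and -0.84), a microtubule polymerase, and NUMA1 (-0.08, -0.05 and 0.08), which anchors microtubules at the poles and is a nuclear protein in interphase. CENPE, itself a motor, is a kinesin-7 of the kinetochore whose symbol falls outside the rule for members. It is counted here among the 20 listed genes and among the 18 past -1. Also named after its values were seen, it had 1439 reads in Bulk and 296, 208 and 265, at -2.38, -2.79 and -2.43.

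Of 18 partners of transport motors, 17 were above the filter, with medians of 0.27, 0.20 and 0.13. None was at -1 or lower in any library, where 6.72% (Claret), 7.64% (eGFP) and 6.92% (Violet) of all genes kept were, so this is near the background. At 1 or higher in all 3 were 2, near the background of 8.67%. These were KLC4, a light chain of conventional kinesin, with 188 reads in Bulk and 506, 409 and 433 (1.31, 1.10 and 1.20), and MAPK8IP2, a scaffold that binds kinesin light chains, with 51 and 212, 180 and 156 (1.91, 1.77 and 1.58). MAPK8IP3, the JNK scaffold that links kinesin-1 to its cargo, was at 0.99, 1.10 and 1.06, with 2328 reads in Bulk and 4856 to 5040 in the others, and was named after its values were seen. The light chain KLC2 lay below Bulk (-0.24, -0.22 and -0.35), as KIF5B did, while KLC1 was at -0.04, 0.03 and 0.05 with intervals that included 0.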

How the data were processed

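RNA of 4 sorted populations of MDA-MB-231 cells was sequenced, 1 library each, from NEBNext Ultra RNA libraries, per the labels' protocols. The authors deposited raw read counts per gene and FPKM made from the same counts; HISAT2 2.0.5 and featureCounts 1.5.0-p3 are named in the submitters' processing notes, while their settings, the strand setting and the build are not given in the sources used here. Without a strand setting, reads of a gene and its antisense partner cannot be told apart. Gene coordinates in the files are those of GENCODE 29 (GRCh38) for 58735 of 58735 genes.

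From the counts, log2 ratios of CPM scaled by TMM (edgeR 4.0.16) were computed with a prior count of 2, over the 14585 genes with a mean of at least 1 CPM. With 1 library per group no test of the conditions exists; 95% exact binomial intervals of the read ratio compare the libraries and, as reads carry no molecular identifiers, cover counting error only. A gene counted as past the fold at a log2 ratio of at least 1 in size (2-fold). FPKM was used as deposited to compare levels of genes per length. The library totals that these FPKM imply were 96.9% (Bulk), 99.97% (Claret), 100.7% (eGFP) and 103.5% (Violet) of the reads counted. FPKM compared between libraries carry this difference. The ratios and intervals were also computed on simulated Poisson counts with 200 changed genes, scaled by library total and not by TMM. Such counts hold counting error only, so they say nothing of variation between replicates. Promoter windows came from RefSeq (GRCh38.p14), matched by symbol or synonym.

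The members, the role and partner lists, the motifs and the tests were chosen with earlier results of these data known. Named were every spindle member, KIF2A, KIF1BP, the 5 transport genes with the highest mean FPKM, other members past the fold in at least 1 library, and up to 4 partners past the fold in all 3 slow-cycling libraries in each direction; other members named were chosen after their values were seen. Alternatives were other scalings (library size, DESeq2 1.42.0 size factors), another prior count, other filters, log2(FPKM + 1), a limit of 0.5, stricter role lists (KIF2A with the spindle; KIF17, KIF21A, KIF21B, KIFC2 and KIFC3 out of transport), an added exact binomial test, groups from the treatment field and, chosen after seeing the data, a correction for GC content in 20 bins.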

Additional observations from a re-analysis of the deposited data

Results flagged for a closer look

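KIF9-AS1, an antisense RNA whose symbol matches the kinesins but which is not protein-coding and so was outside the rule, gave a signal above that in Bulk. Its Bulk count was 31 reads and its Claret, eGFP and Violet counts 63, 82 and 69. On the log2 scale the ratios were 0.87 (0.27 to 1.58), 1.34 (0.78 to 2.04) and 1.11 (0.52 to 1.82). Its exons share 870 bases with those of KIF9 on the opposite strand, where KIF9 had 79 reads in Bulk and 95, 74 and 113, so reads of the pair cannot be told apart without the strand setting of the counting.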

How the results depend on the processing

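A count of 12 lower spindle and cytokinesis genes was found in each library under each alternative tried (of 14 with no filter, of 13 with stricter role lists, of 12 otherwise), except with groups from the treatment field, which gave 0 in Claret, eGFP and Violet. That field makes the library titled Violet the reference, and the cause of its disagreement with the titles was not tested. Under it the spindle medians were 2.07, -0.0080 and -0.25 against the reference, 2.08 for Claret to eGFP, 2.37 for Claret to Violet and 0.23 for eGFP to Violet. The spindle share of FPKM became 33.0% (Bulk), 63.5% (Claret), 33.2% (eGFP) and 29.2% (Violet). Transport genes at 1 or higher became 0 in each, 2 were at -1 or lower in Claret, and the transport median in Claret was -0.28. Of 35 members, 34 changed sign under it in Claret, 15 in eGFP and 10 in Violet. Those that had been past 1 in size were, in Claret, KIF11 (2.14), KIF23 (2.27), KIF18B (2.52), KIFC1 (2.19), KIF2C (1.75), KIF22 (1.83), KIF20A (2.88), KIF14 (1.85), KIF20B (1.81), KIF4A (2.37), KIF18A (1.24), KIF15 (2.01), KIF24 (1.71), KIF21B (-2.24), KIF26B (-1.70), KIF17 (-2.04) and KIF12 (-1.72). In eGFP such members were KIF23 (0.048), KIFC1 (0.0022), KIF14 (0.037), KIF20B (0.058), KIF4A (0.11), KIF15 (0.035), KIF24 (0.0048), KIF17 (-0.011) and KIF12 (-0.57), and in Violet KIF21B (-0.039), KIF26B (-0.47) and KIF12 (-0.48). With titles kept, the transport medians were -0.21, -0.25 and -0.20 with a filter at 10 CPM, -0.21, 0.063 and 0.039 with stricter lists, -0.023, 0.063 and 0.037 with log2(FPKM + 1), -0.10, 0.20 and 0.19 with the GC correction, and in Claret 0 with no filter. The eGFP spindle median was -2.19 both with no filter, where KIF2B and KIF4B enter, and with log2(FPKM + 1). The 2 transport genes at 1 or higher became 1 in each library with a filter at 10 CPM, 0 in each with log2(FPKM + 1), 0 in each with stricter role lists, and 4 in eGFP at a limit of 0.5, where 2 were at -0.5 or lower in each library. Stricter lists put the spindle share at 72.0% (Bulk), 46.4% (Claret), 42.4% (eGFP) and 46.1% (Violet). The GC correction brought KIF12 in Claret to 0.94. No paired analysis was possible because each group has 1 library. Depth limits members with few reads, such as KIF17 and KIF5C, whose intervals are wide.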

Other observations

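Cytoplasmic dynein, the motor that moves cargo towards microtubule minus ends against most kinesins, was read with its cofactor dynactin as a list of 20 genes, all above the filter. The list medians were -0.25 (Claret), -0.24 (eGFP) and -0.28 (Violet). No gene was at -1 or lower in all 3 libraries, where 4.93% of all genes kept were. None was at 1 or higher in all 3, where 8.67% were. The interval lay below 0 in all 3 for 13 genes, where 30.5% of all genes kept did so, and above 0 for 3, where 27.7% did. The heavy chain DYNC1H1 had a Bulk count of 17351 reads and Claret, eGFP and Violet counts of 15757, 14829 and 15724, at -0.25, -0.24 and -0.14. DYNC1I1, an intermediate chain best known from neurons, was furthest from Bulk at -1.12, -1.51 and -0.98, on 77 reads in Bulk and 37, 26 and 38. The light chain DYNLT3 was furthest above Bulk, at 0.69, 0.69 and 0.56. These 3 genes were named after their values were seen. KIFAP3, the subunit that links kinesin-2 motors to cargo and whose symbol falls outside the rule, had 306 reads in Bulk and 434, 331 and 327, with an interval above 0 in Claret alone.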
